A study of Mus musculus with 28 samples.

Results

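Mouse small-intestinal organoids treated with recombinant BMP4 were compared with untreated organoids by RNA sequencing. The comparison held 7 of the 28 samples of the series, chosen by their labels: 3 samples given BMP4 at 500 ng/ml for 24 h (replicates II, III and VI) and 4 untreated control samples (replicates II, III, IV and VI). All of them were wild-type C57BL/6, and their crypts had first been grown in ENR medium with no added BMP or TGF-beta before debris was removed and the ligand was given in fresh matrigel. The same table of 20 samples also held organoids given BMP2 (n = 4) or BMP7 (n = 3) at the same dose and time. It held organoids given BMP3 or BMP5 as well. Values with BMP2 and BMP7 are given below only where they show how BMP4 differed. All 20 samples entered the filter on low values and the spread used in the limma tests. The labels do not say whether replicates came from separate mice or cultures, so p-values measure a spread between replicates that may be technical.

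BMPs are secreted ligands that bind paired type I and type II receptor kinases, which phosphorylate SMAD1, SMAD5 and SMAD8, and these enter the nucleus with SMAD4. In the intestine BMP signalling is weakest at the crypt base, where mesenchymal antagonists protect the stem cells, and strongest towards the villus tip. Enterocytes, the absorptive cells that cover the villus, change their genes as they climb it: antimicrobial genes come first, sugar and peptide absorption in the middle, and lipid and purine genes at the tip. The study asked which ligands of this family govern the last steps of that course.

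Promoter windows were searched for the enterocyte genes Sis, Lct, Fabp1 and Apoa4, whose values rose. The first 3 are printed as examples with matches; the Apoa4 window held no match to any of the letters searched. The sequences are from RefSeq (GRCm38.p6), from 250 bases before to 50 bases after the annotated start. The printed genes encode sucrase-isomaltase (Sis, chr3:72967814-72968113, minus strand), lactase (Lct, chr1:128328269-128328568, minus strand) and a liver-type fatty acid binding protein (Fabp1, chr6:71199629-71199928, plus strand). Capitals mark matches on either strand to the letters searched.
Sis: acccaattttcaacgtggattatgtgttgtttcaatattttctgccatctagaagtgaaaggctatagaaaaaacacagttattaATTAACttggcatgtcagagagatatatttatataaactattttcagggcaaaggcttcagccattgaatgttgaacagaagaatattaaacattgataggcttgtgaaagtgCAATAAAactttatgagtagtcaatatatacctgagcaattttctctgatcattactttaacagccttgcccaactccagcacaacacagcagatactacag
Lct: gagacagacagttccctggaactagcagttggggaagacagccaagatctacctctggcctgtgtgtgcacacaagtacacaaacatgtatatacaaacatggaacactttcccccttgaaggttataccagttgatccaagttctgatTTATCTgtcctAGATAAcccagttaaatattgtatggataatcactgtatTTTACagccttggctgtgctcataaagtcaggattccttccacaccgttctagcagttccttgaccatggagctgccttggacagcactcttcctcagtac
Fabp1: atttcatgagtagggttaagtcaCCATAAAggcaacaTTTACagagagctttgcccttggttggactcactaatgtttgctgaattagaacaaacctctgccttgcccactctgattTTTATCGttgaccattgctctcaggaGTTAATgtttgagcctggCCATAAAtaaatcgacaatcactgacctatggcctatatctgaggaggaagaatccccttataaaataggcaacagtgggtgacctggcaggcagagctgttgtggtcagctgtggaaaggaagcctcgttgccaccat
Both strands were searched for letters known from binding sites of intestinal factors. For the nuclear receptor HNF4 they were CAAAGTCCA. For the homeobox factor HNF1 they were GTTAAT. For the homeobox factor CDX2 they were either TTTATNG, called the longer form here, or the shorter form TTTAC. For GATA factors they were AGATAA. For the SMADs of the BMP pathway they were GGCGCC. The Sis window held an HNF1 match 165 bases and a CDX2-type match 52 bases before the start. The Lct window held GATA matches 101 and 90 bases before the start and a CDX2-type match at 51. The Fabp1 window held CDX2-type matches 227, 213, 133 and 89 bases before the start and an HNF1 match at 107. These letters are common: of 32851 promoter windows of the same length, 7.1% held the HNF1 motif, 10.9% the longer and 31.5% the shorter CDX2-type form and 11.2% the GATA motif. None of the 4 windows held the HNF4 motif (0.475% of windows) or the BMP-SMAD motif (11.9%), which says only that these letters are not in these windows.

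Between 21705913 and 24784834 reads were recovered per control sample and between 22058931 and 22536809 per BMP4 sample. Values are the deposited normalized counts, reads divided by a size factor per sample and not by gene length, so levels are compared between samples and not between genes. Their sum per sample was 1.32 times higher with BMP4 (26232395 ± 706629, SD, n = 3) than in controls (19885612 ± 702378, n = 4), with no overlap (exact permutation test, two-sided, p = 0.0286, the smallest that 35 splits allow). The choice of scale therefore matters. With every sample set to the same total, the median log2 fold change of all genes fell from 0.04 to -0.35, so single genes lose about that much, and the split of calls moved from 51.7% to 31.1% higher. Counts of BMP4 replicates II and III differed by a chi-square of 15.7 per gene, those of VI from II and III by 51.5 and 52.6. Pairs of controls ran from 22.7 (II and III) to 52.7 (II and IV). The distance of BMP4 VI was thus within that of control pairs, and BMP4 II and III were a close pair.

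The epithelial label was met by the markers. Epcam, an epithelial adhesion molecule, stood at 18700 to 22100 normalized counts in controls and 33900 to 39200 with BMP4. Of 9 mesenchymal markers 7 were in the table, and their summed level was 140 to 228 in controls and 34.2 to 51.4 with BMP4, mostly Vim, while Col1a2 and Col3a1 stayed at or under 5.32. The 5 immune markers summed to 55.9 to 91.6 and 37.2 to 101. The 3 endothelial markers summed to 569 to 774 in controls and 865 to 1031 with BMP4, nearly all of it Pecam1, while Cdh5 was 0 in all 7 samples and Kdr did not exceed 1.2. Pecam1, an adhesion molecule, was called higher (log2 fold change 0.49, adjusted p = 0.0033), but not with equal totals (adjusted p = 0.50). The part of these other cell types in the results was not tested. Gata4, a factor of the proximal small intestine, was at 2500 to 2750 in controls, and the ileal gene Fabp6 did not exceed 7.1 in any of the 7 samples. In such bulk samples fewer cells of a type and less RNA per cell cannot be told apart.

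Across the 14746 genes tested with limma, 9597 (65.1%) passed an adjusted p of 0.05, 4964 of them (33.7%) higher and 4633 (31.4%) lower with BMP4. At least 2-fold higher were 2307 genes (15.6%) and at least 2-fold lower 2537 (17.2%). With calls this common, list counts below are read against these shares and the median log2 fold change of all genes, 0.04. The 28 gene lists named 349 genes, of which 3 (Folh1, Dcn and Lum) had no row and 326 passed the filter on low values. Below, values of single samples follow the order II, III, IV, VI for controls and II, III, VI for BMP4, all in normalized counts. In each list given below with 0 genes called in a direction against the controls, other than the Paneth list, 0 passed in that direction also at an unadjusted p of 0.05 or with edgeR or DESeq2 on recovered reads.

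**Figure D1:**
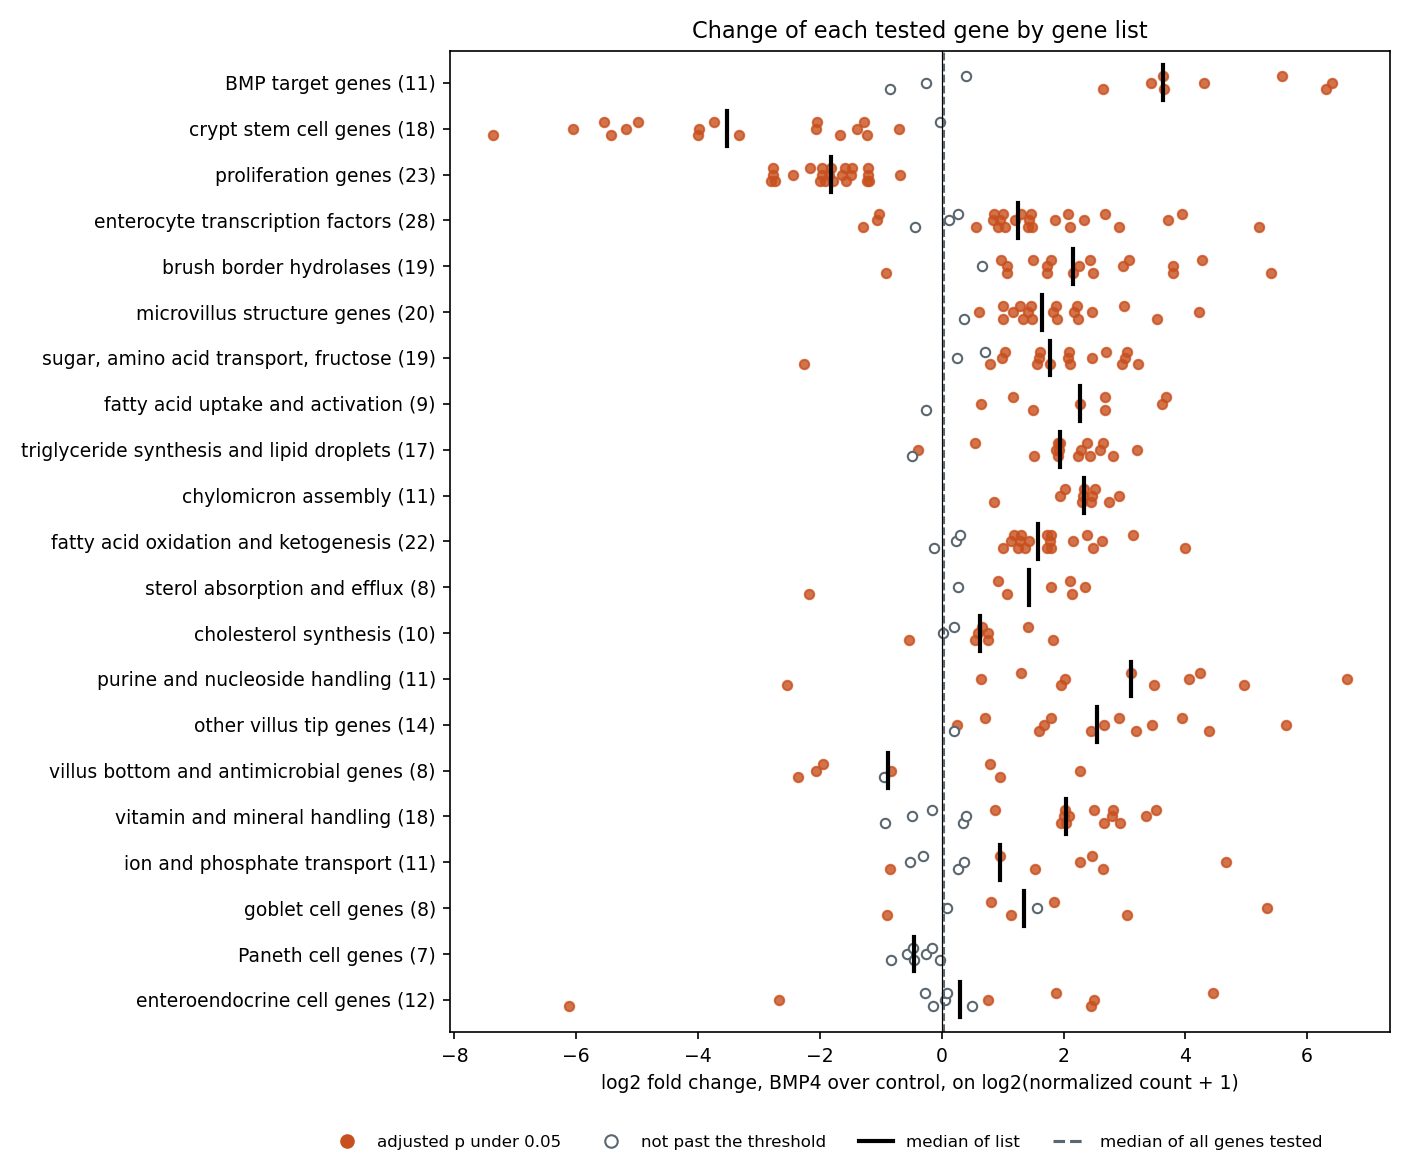
Log2 fold change of each tested gene, BMP4 over control, in 21 gene lists (number of tested genes in brackets). Filled points passed an adjusted p of 0.05 and black bars are list medians. The absorptive lists lie to the right of the median of all genes (0.04), and the crypt and proliferation lists lie to its left.

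The canonical BMP response was present in all 3 BMP4 samples. Of 11 tested BMP target genes 8 rose and 0 fell, with a median log2 fold change of 3.64. Id1, an inhibitor of basic helix-loop-helix factors and a direct SMAD target, stood at 114, 112, 134 and 171 in controls and at 2560, 1960 and 3510 with BMP4, a log2 fold change of 4.30 (SE 0.19, adjusted p = 5.9e-12). Every BMP4 sample was far above every control. Id3, of the same family, went from 33.7, 29.9, 20.4 and 32.2 to 3030, 1940 and 2670. The inhibitory SMAD genes, which feed back on the receptors, were low in every control and high in every BMP4 sample: Smad6 was at 12.4, 32.4, 8.87 and 36.3 and then 865, 773 and 1340, a 44.1-fold ratio of means. Smad7 rose 12.7-fold from a control mean of 128 ± 28.4 (SD, n = 4). Msx1, a homeobox target, rose from at most 6.22 to between 337 and 546. Id4 and Atoh8 did not pass the test (log2 fold changes of 0.39 and -0.26). Bambi, a pseudoreceptor that blocks the pathway, was at 102, 46.5, 41.7 and 41.3 and 55.7, 20.5 and 21.5 and did not pass (adjusted p = 0.085) but did with replicate number as a block (adjusted p = 0.00027). Msx2, Bmper and Nog were too low to test.

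Genes of the crypt base fell together. Of 18 crypt stem cell genes 17 fell and 0 rose, 16 of them at least 2-fold, with a median log2 fold change of -3.53. Lgr5, the receptor for R-spondin that marks crypt base stem cells, was at 5210, 5050, 3150 and 3950 in controls and at 34.4, 33.1 and 13.2 with BMP4. It fell by 7.37 on the log2 scale (SE 0.40, adjusted p = 6.8e-11), with a mean 161-fold below that of the controls. Olfm4, a secreted stem cell marker, was at 85700, 84000, 110000 and 91100 in controls and at 1550, 1520 and 3250 with BMP4. The highest BMP4 value, in replicate VI, was still far under the lowest control. Msi1, an RNA-binding protein of progenitors, and Lrig1, which restrains ErbB receptors, had log2 fold changes of -5.43 and -3.32. Axin2, a WNT target, was at 5250, 4080, 4480 and 4250 and 3660, 1910 and 3030 (log2 fold change -0.70, adjusted p = 0.010), and did not pass without BMP4 replicate III (adjusted p 0.10). Rnf43, which removes WNT receptors, was the member that did not pass, with 1950 to 2420 in controls and 1940 to 2230 with BMP4; with equal totals it was lower (adjusted p = 0.00019).

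Cell cycle genes were lower in every BMP4 sample but far from absent. All 23 proliferation genes tested fell, 22 of them at least 2-fold, with a median log2 fold change of -1.81. Mki67, a nuclear marker of cycling cells, was at 11200, 10900, 14500 and 7480 in controls and 2970, 3490 and 3930 with BMP4, a log2 fold change of -1.64 (SE 0.44, adjusted p = 0.0032). All BMP4 samples lay under all controls. Tyms, which makes thymidylate for DNA synthesis, and Ccnd2, a cyclin of the G1 phase, had log2 fold changes of -1.96 and -2.74. The list medians of single BMP4 samples against the control mean were -2.03, -2.11 and -1.28 in II, III and VI, so the fall was smaller in VI. The genes of this list held 0.448, 0.450, 0.441 and 0.394% of all counts in the controls and 0.0863, 0.0827 and 0.117% with BMP4.

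**Figure D2:**
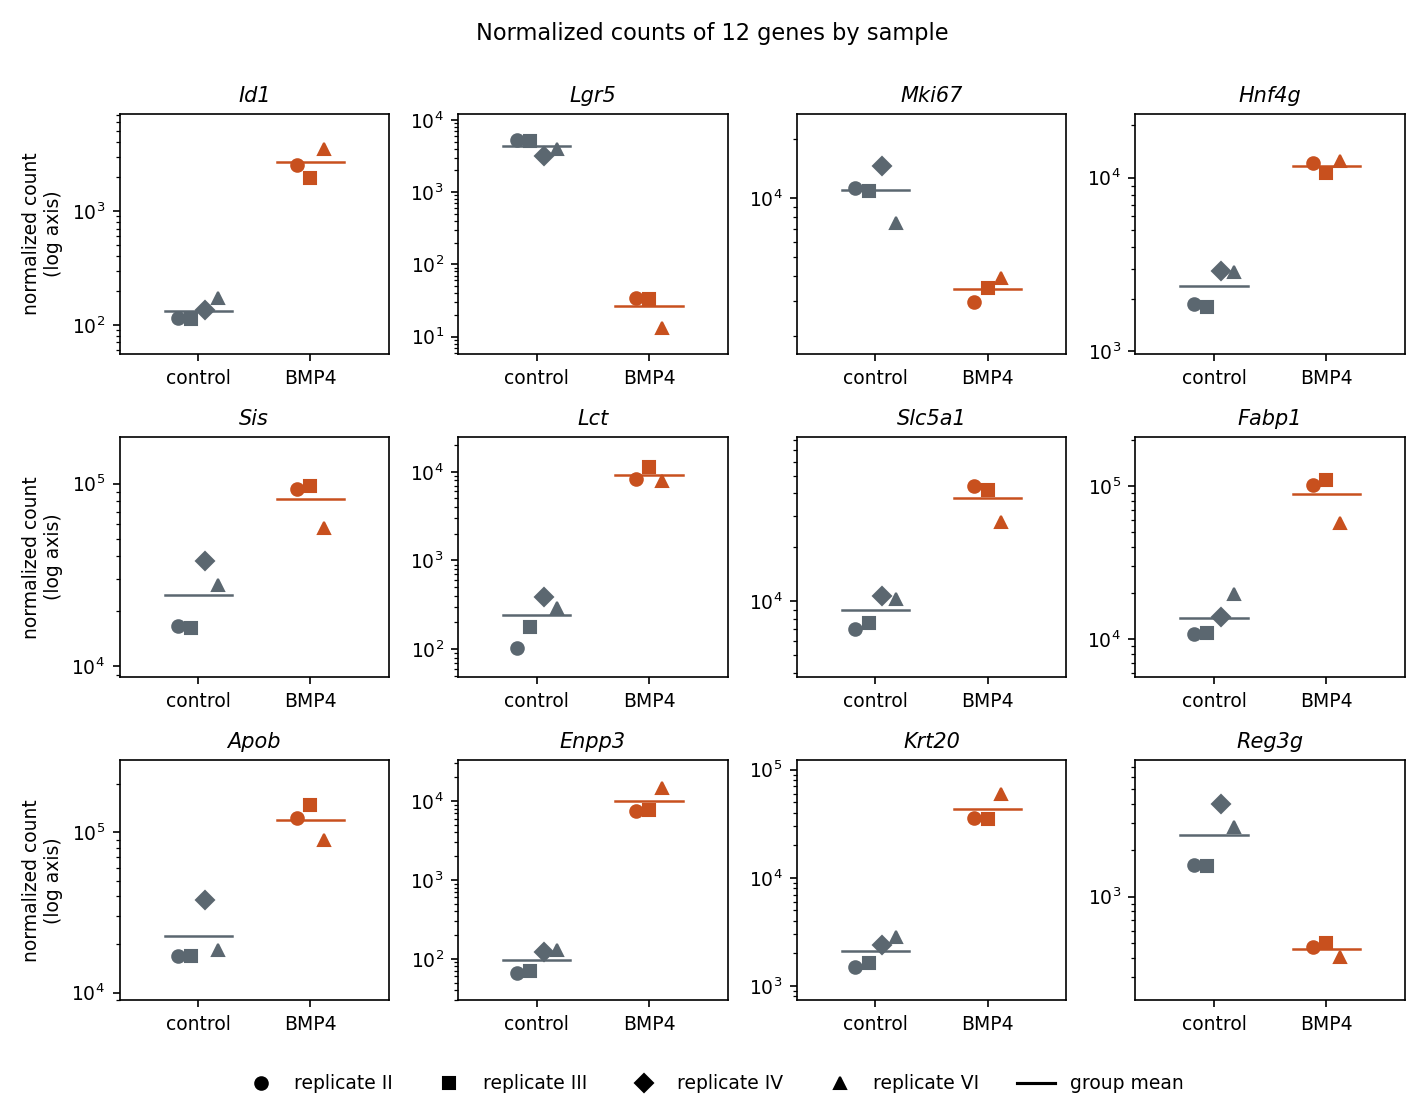
Normalized counts (log axis) of 12 genes in each control and BMP4 sample, with marker shapes for the replicates and lines for group means. For all 12 genes the 3 BMP4 samples lie on one side of the 4 controls, above them for Id1, Hnf4g, Sis, Lct, Slc5a1, Fabp1, Apob, Enpp3 and Krt20 and below them for Lgr5, Mki67 and Reg3g.

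Transcription factors of enterocytes rose for the most part. Of 28 tested, 22 rose and 3 fell, with a median log2 fold change of 1.25. Hnf4a, a nuclear receptor that drives the enterocyte fate, was at 16700, 17400, 16700 and 18900 in controls and 32100, 32200 and 41600 with BMP4, a 2.03-fold ratio (log2 fold change 1.01, SE 0.13, adjusted p = 2.4e-06). Its paralogue Hnf4g, which is more restricted to differentiated cells, went from 1880, 1810, 2890 and 2880 to 12200, 10600 and 12400, a 4.96-fold ratio. Both genes were higher in every BMP4 sample than in any control. The largest change among the factors was that of Maf, a leucine zipper protein, from 151, 158, 217 and 240 to 7240, 6040 and 7820 (log2 fold change 5.21, SE 0.19, adjusted p = 5.6e-13). Klf4, a zinc finger factor of cells that have left the cycle, was at 608, 432, 452 and 501 and then at 7710, 6380 and 8920. The groups stood apart for all of these.

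Cdx2, which specifies intestine, and Gata4 had log2 fold changes of 0.84 (SE 0.18) and 0.96 (SE 0.11). Prdm1, the repressor that holds back adult enterocyte genes in the suckling gut, rose from between 24 and 58.6 to between 273 and 297. Among lipid sensors Ppara rose 4.09-fold and its coactivator gene Ppargc1a 3.80-fold, while Nr1h3, encoding the oxysterol receptor LXR alpha, rose 1.89-fold. Among the factors that fell were Ehf, an ETS family member (-1.29), and Cdx1, a crypt-biased homeobox factor (-1.05), both log2 fold changes. Gata5, Nr5a2 and Elf3 did not pass; Elf3, an epithelial ETS factor, was at 4080, 5950, 5700 and 7550 and 4950, 6520 and 10100 (adjusted p = 0.41) and passed with replicate number as a block (adjusted p = 0.014), as did Gata5 downwards (0.029).

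Digestive enzymes of the brush border, the apical carpet of microvilli where the last steps of digestion take place, were higher in the BMP4 samples. Of 19 tested, 17 rose, 1 fell and 1 did not pass, with a median log2 fold change of 2.16 (1.76 with equal totals). Their summed share of all counts was 0.329, 0.350, 0.591 and 0.445% in controls and 1.46, 1.51 and 1.06% with BMP4. Sis was at 16700, 16200, 37500 and 27900 and then at 93700, 96600 and 56900, a log2 fold change of 1.80 (SE 0.34, adjusted p = 0.00013). Controls IV and VI were higher than II and III, and BMP4 VI was the lowest of the treated, so the gap between the highest control and the lowest treated sample was narrow. Lct, which splits milk sugar, was nearly silent in controls at 104, 176, 392 and 292 and stood at 8390, 11400 and 7810 with BMP4 (log2 fold change 5.40, SE 0.58, adjusted p = 2.1e-07). The promoters of both genes are among those printed above.

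Intestinal alkaline phosphatase, encoded by Alpi, was at 8910, 9480, 11600 and 13400 in controls and 94700, 90400 and 87000 with BMP4, a 8.36-fold ratio with little spread among the treated samples. Akp3, a related phosphatase gene, rose 14.3-fold, to 63300, 62300 and 36100, with replicate VI lowest. Tmprss15, the enteropeptidase that activates trypsinogen, rose from between 16 and 40.5 to between 243 and 656. Anpep, aminopeptidase N, was at 4650, 5100, 6440 and 6930 and 7820, 8140 and 11700; no sample overlapped, but the change of 0.67 did not pass (adjusted p = 0.060) except with replicate number as a block (adjusted p = 0.026). Mgam, maltase-glucoamylase, was at 24400, 23200, 37200 and 20900 in controls and 64200, 66100 and 30100 with BMP4; replicate VI lay within the controls, and the call (adjusted p = 0.0029) ended with equal totals (0.080) and with quantile normalization (0.51). Mep1a, a meprin metalloprotease subunit, was the member that fell (-0.92), whereas Mep1b, the other subunit, had a log2 fold change of 1.73.

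The structural genes of the microvillus rose, with 1 exception. Of 20 tested, 19 rose and 0 fell, 18 of them at least 2-fold, with a median log2 fold change of 1.65. Vil1, which bundles and severs the core actin filaments, was at 8880, 9080, 10700 and 11300 in controls and 41500, 40500 and 53200 with BMP4 (log2 fold change 2.17, SE 0.19, adjusted p = 2.0e-08). Pls1 and Espn, further bundling proteins, rose 3.55-fold and 7.93-fold. The protocadherins Cdhr2 and Cdhr5, which link microvillus tips, rose 5.51-fold and 4.67-fold, and the scaffold genes that anchor them, Ush1c and Anks4b, 2.77-fold and 3.66-fold. Myo1a, the motor that tethers the core to the membrane, went from between 4400 and 7100 to between 23700 and 27700. Baiap2l2 had 1250 to 1520 in controls and 1670 to 1930 with BMP4 and did not pass (adjusted p = 0.065). With replicate number as a block all 20 genes passed upwards, Baiap2l2 among them. All 20 genes lay above the controls with no overlap between groups. Of all 14746 genes tested, 4990 lay above and 4564 below the controls without overlap.

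Transporters for sugars, peptides and amino acids followed. With the fructose enzymes this list had 16 genes that rose and 1 that fell of 19 tested, and a median log2 fold change of 1.78. Slc5a1, the sodium-glucose cotransporter, was at 7040, 7560, 10700 and 10300 in controls and 44200, 41700 and 27900 with BMP4 (log2 fold change 2.09, SE 0.29, adjusted p = 5.1e-06). Slc2a5, the fructose transporter, went from 964, 1130, 1020 and 1790 to 6700, 6290 and 3130. For both, replicate VI was the lowest of the treated and still above every control. Slc15a1, the peptide transporter, was at 191, 193, 346 and 482 and 2040, 2010 and 2840, and Slc6a19, the main neutral amino acid transporter, rose 8.85-fold to 9180, 9060 and 11600; here replicate VI was the highest. Slc3a2, the heavy chain of basolateral exchangers, rose 2.04-fold. Slc1a1, a glutamate transporter, fell from between 464 and 706 to between 101 and 143 (-2.26 on the log2 scale). Slc7a8 and Slc36a1 did not pass (adjusted p = 0.051 and 0.082) except with replicate number as a block (0.018 and 0.014), and Fbp1 passed (0.043) but not with it (0.058), with equal totals (0.20) or without any one of BMP4 II and III and controls II and III (0.085 to 0.17).

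Most genes of lipid handling rose, from uptake to export. Of 9 fatty acid uptake genes 8 rose and 0 fell (median log2 fold change 2.27). Cd36, a fatty acid translocase, was at 64.8, 63.1, 168 and 207 and then at 702, 651 and 774. Fabp1, whose promoter is printed above, went from 10800, 11000, 13900 and 19600 to 101000, 109000 and 57000, a log2 fold change of 2.67 (SE 0.33, adjusted p = 9.5e-07), with replicate VI the lowest of the treated. Fabp2, the intestinal form of the binding protein, rose 11.8-fold to 45400, 42600 and 46600 with little spread. Acsl5, which activates fatty acids to their CoA esters, rose 4.80-fold. Slc27a2 did not pass (1090 to 1490 and 923 to 1140, adjusted p = 0.42), while Slc27a4, the fatty acid transporter of the enterocyte, rose 12.7-fold.

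Of 17 genes for triglyceride synthesis and lipid droplets 15 rose and 1 fell (median 1.95). Mogat2, which rebuilds diglyceride from absorbed monoglyceride, was at 485, 574, 877 and 1110 in controls and 3890, 4330 and 3570 with BMP4, a 5.16-fold ratio. Agpat2, an acyltransferase of the other route, rose 6.99-fold, and Dgat1 and Dgat2, which add the last acyl chain, rose 4.63-fold and 6.22-fold. The droplet coat gene Plin2 rose from between 901 and 1050 to between 3140 and 3950 and the droplet fusion gene Cidec from between 100 and 135 to between 1100 and 1180. Gpat4 fell slightly (-0.38). Hilpda, an inhibitor of lipolysis, was at 59.4 to 122 and 64.6 to 67.3 and did not pass (adjusted p = 0.073) except with replicate number as a block (0.0076).

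All 11 tested chylomicron genes rose, with a median log2 fold change of 2.34, and their share of all counts was 0.232, 0.259, 0.413 and 0.376% in controls and 1.16, 1.35 and 1.10% with BMP4. Apob, the scaffold of the chylomicron, was at 17000, 17000, 37700 and 18400 and then at 123000, 148000 and 88800 (log2 fold change 2.47, SE 0.37, adjusted p = 9.5e-06). Control IV was the highest of the controls and replicate VI the lowest treated sample, and the groups stood apart. Mttp, which loads lipid onto it, went from 12600, 12800, 18300 and 21300 to 81200, 77800 and 77900, a 4.86-fold ratio. The exchangeable apolipoproteins Apoa1 and Apoa4 were at 3200, 3970, 6260 and 9360 and at 5210, 7070, 7170 and 15700 in controls. With BMP4 they were at 26200, 31000 and 33200 and at 41600, 56800 and 65700. Control VI was the highest of the controls for both and lay below every treated sample. Sar1b, the GTPase of chylomicron export, and Pla2g12b, needed for particle lipidation, rose 3.82-fold and 4.93-fold. Apom was too low to test.

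Most genes that burn fatty acids rose as well. Of 22 tested for oxidation and ketogenesis 19 rose and 0 fell (median 1.58). Cpt1a, the gate of entry into mitochondria, was at 2130, 1990, 1890 and 2430 and 7150, 6320 and 7540 (log2 fold change 1.73, SE 0.12, adjusted p = 6.8e-10). Slc25a20, the carnitine carrier, and Acadvl, the very-long-chain dehydrogenase, rose 4.44-fold and 3.48-fold. Bdh1, Angptl4 and Acot1 did not pass. In sterol handling 6 of 8 tested genes rose and 1 fell: Npc1l1, the cholesterol importer, was at 1490, 1530, 2020 and 2010 and 9620, 9230 and 7870, and Abcg5 and Abcg8, which pump sterol back out, rose 4.27-fold and 4.26-fold. Soat1, which esterifies cholesterol, fell from between 4050 and 5010 to between 833 and 1200, while Soat2, the enterocyte form, rose 3.44-fold. Of 10 cholesterol synthesis genes 7 rose and 1 fell by the deposited scale (median 0.63), but with equal totals 3 rose and 2 fell. Hmgcs1 and Insig1, at 1.42 and 1.82, were the members with the smallest p.

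**Figure D3:**
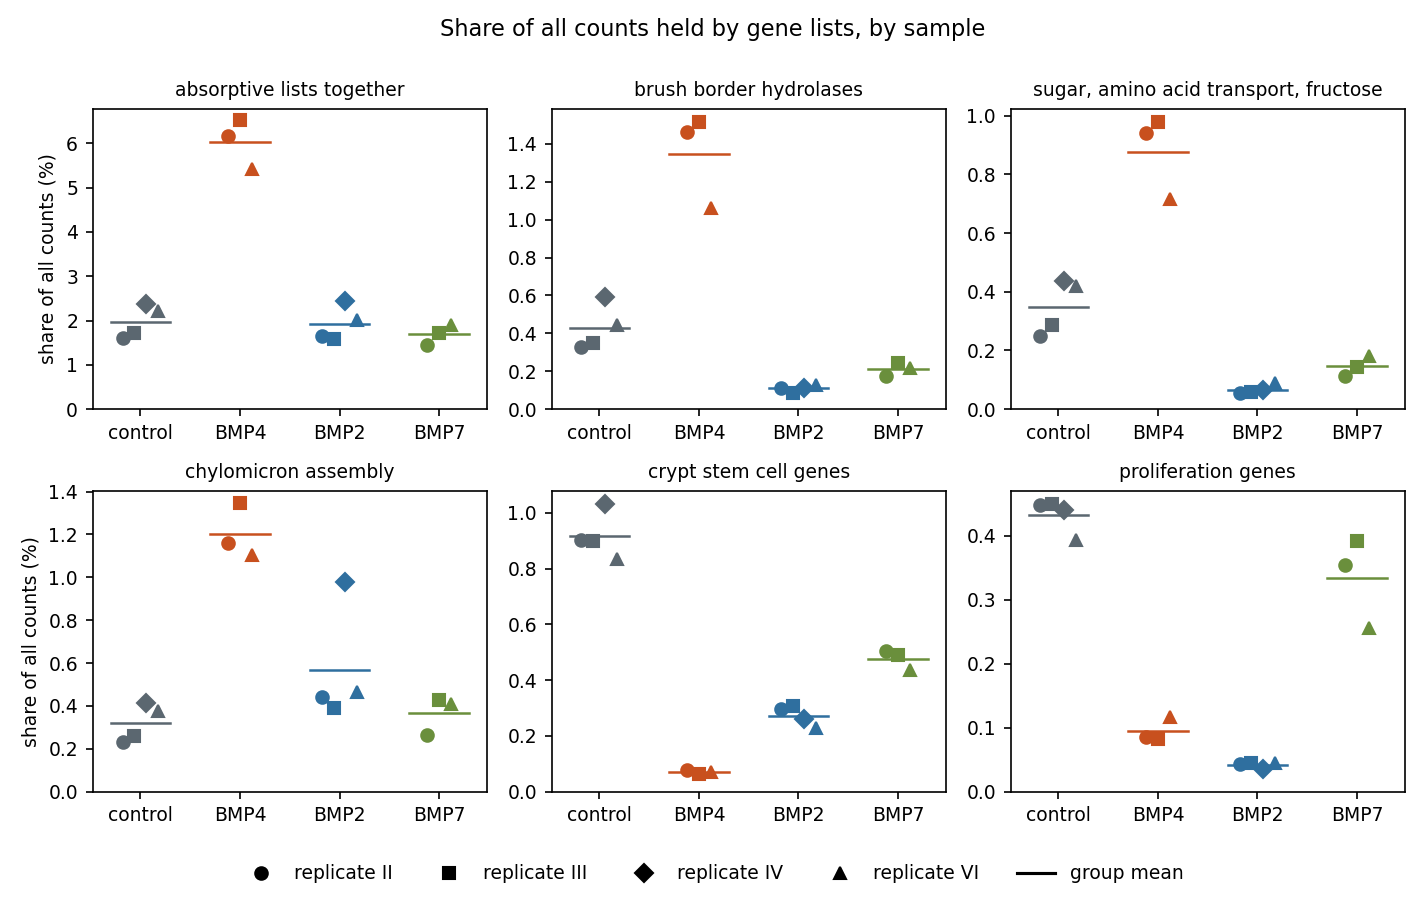
Share of all counts (%) held by 9 absorptive lists together, 3 of these lists singly, and the crypt and proliferation lists, in each control, BMP4, BMP2 and BMP7 sample, with lines for group means. The BMP4 samples hold 5.43 to 6.53% in the absorptive lists and lie above all others.

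As a share of all counts, which does not depend on the scale, the 137 genes of the 9 absorptive lists (hydrolases, microvillus, transport, fatty acid uptake, triglyceride, chylomicron, oxidation, sterol and purine) made up 1.61, 1.72, 2.37 and 2.21% of counts in the controls and 6.16, 6.53 and 5.43% with BMP4. The means were 1.98% ± 0.370 (SD, n = 4) and 6.04% ± 0.562 (n = 3), a ratio of 3.05. The groups did not overlap.

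Genes for purines and nucleosides, a late feature of the enterocyte's climb, were higher with BMP4. Of 11 tested, 10 rose and 1 fell, with a median log2 fold change of 3.10; without BMP4 replicate VI 8 rose and 1 fell, as Slc28a2 and Entpd8 no longer passed. Enpp3, an ectoenzyme that cleaves extracellular nucleotides, was at 66.6, 69.7, 123 and 129 in controls and 7370, 7760 and 14700 with BMP4 (log2 fold change 6.66, SE 0.45, adjusted p = 7.1e-10). Gda, guanine deaminase, was at 462, 449, 778 and 1020 and 18500, 20200 and 21300. Nt5e, the ecto-nucleotidase that makes adenosine, rose from at most 27.5 to 306, 240 and 546. Ada, which deaminates adenosine, went from 396, 437, 536 and 569 to 2950, 5090 and 10400, and Slc28a2, a concentrative nucleoside transporter, from 170, 192, 143 and 246 to 319, 671 and 2010. For Enpp3, Ada, Nt5e and Slc28a2 replicate VI was the highest of the treated samples, and Slc28a2 lost its call without it (adjusted p 0.0091 with it and 0.086 without). Slc29a1, the equilibrative nucleoside transporter, fell from between 718 and 1040 to between 148 and 172.

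Of 14 other genes of the villus tip 13 rose and 0 fell (median 2.56). Krt20, a keratin of terminally differentiated cells, was at 1510, 1620, 2400 and 2820 and 36000, 35200 and 59500, a log2 fold change of 4.39 (SE 0.37, adjusted p = 9.5e-09). Ceacam20, a microvillar adhesion protein, rose 9.16-fold. Egfr, the EGF receptor, was at 1170 to 1510 and 1960 to 2710 (0.71), and did not pass with equal totals (adjusted p = 0.11). Clca4a and Clca4b, which share much of their sequence so that reads may be split between them, rose. Clca4a was at 38 to 50.6 in controls and 1110, 2190 and 4830 with BMP4, a 60.9-fold ratio that was 37.1-fold without replicate VI, and Clca4b rose 6.43-fold. Jun did not pass (adjusted p = 0.45).

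Genes of the lower villus were called in both directions. Of 8 tested, 3 rose and 4 fell (without BMP4 replicate VI, 3 rose and 2 fell), with a median of -0.89. Over all genes tested 33.7% were higher and 31.4% lower, so calls both ways are not particular to this list. With replicate number as a block 3 rose and 5 fell. Reg3g, an antimicrobial lectin with close relatives between which reads could be split, was at 1610, 1590, 4030 and 2850 in controls and 468, 499 and 404 with BMP4, a log2 fold change of -2.35 (SE 0.48, adjusted p = 0.00029). Its relative Reg3b was at 2760, 2660, 11000 and 7400 and 1210, 1300 and 1330 (-1.95, adjusted p = 0.042), a call that ended without any one of BMP4 II, III and VI and controls IV and VI (adjusted p 0.078 to 0.12). Controls IV and VI were the higher ones for both. Il18 and Ccl25, a cytokine and the chemokine that draws lymphocytes to the small intestine, rose from between 316 and 618 to between 1440 and 2630 and from between 2600 and 3570 to between 4720 and 6890.

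Vitamin and mineral genes rose in 13 of 18 tested and fell in 0 (median 2.04). Fth1, ferritin heavy chain, rose 3.90-fold, and Heph, the ferroxidase of iron export, 4.21-fold. The iron importer Slc11a2 was at 2960, 4170, 2080 and 5360 and 28500, 43400 and 14200, the exporter Slc40a1 at 1050, 875, 1010 and 1130 and 13800, 12900 and 6240, and both were above the controls in every treated sample. Tfrc, Mt1 and Mt2 did not pass; Mt2, a metallothionein, was lower with replicate number as a block (adjusted p = 0.034, without it 0.12). Rbp2, the retinol binding protein of enterocytes, rose 6.30-fold and S100g, the calcium binding protein of absorption, 10.7-fold. Trpv6, a calcium channel of the apical membrane, was at 0.888, 0, 1.77 and 0.826 in controls and 19, 25.1 and 26.3 with BMP4, and like Cyp24a1 had too low a mean over the 20 samples to be tested.

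Of 11 ion and phosphate transport genes 6 rose and 1 fell (median 0.97). Slc26a3, counted as higher, did not pass with equal totals (adjusted p = 0.16) or quantile normalization (0.18). Nor did it without any one of BMP4 II and VI and control III (0.057 to 0.076). Slc9a2, a sodium-proton exchanger, rose 6.23-fold with treated values of 6070, 6110 and 6240, and Slc34a2, the phosphate cotransporter, rose from between 55.9 and 130 to between 1330 and 2700. Cftr, the chloride channel of crypt secretion, fell from between 4030 and 5310 to between 2380 and 2650. Guca2a, the guanylin gene, and Slc4a4 passed with replicate number as a block only (adjusted p = 0.0071 and 0.026, without it 0.12 and 0.24). Of 5 tested bile acid genes of the ileum 4 rose and 0 fell (median 1.98), among them Nr1h4, the bile acid receptor FXR (1.98), and Slc51b, a subunit of the basolateral exporter (3.31). Slc10a2, also counted as higher, did not pass with equal totals (adjusted p = 0.26). Nor did it without BMP4 replicate II (0.13), BMP4 replicate III (0.11) or control replicate VI (0.066).

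Secretory cells gave a mixed picture. Of 8 goblet cell genes 5 rose and 1 fell (median 1.35), and the list median was 1.60 and 1.72 in BMP4 II and III and 0.58 in VI. Tff3, counted as higher, did not pass with equal totals (adjusted p = 0.20) or quantile normalization (0.24). Nor did it without BMP4 replicate II (0.071) or III (0.059). Zg16, a mucus lectin, went from 361, 266, 511 and 366 to 15900, 15500 and 13500 (log2 fold change 5.35, SE 0.28, adjusted p = 4.0e-11) and Clca1, a mucus protease, from between 1150 and 1830 to between 11300 and 11700. Muc2, the main gel mucin, was at 3360, 3110, 7270 and 1860 and 13000, 19500 and 4160; replicate VI lay among the controls, and the change of 1.56 did not pass (adjusted p = 0.053) except with replicate number as a block (0.00076). Spink4 fell (-0.89, adjusted p = 0.022), but not without BMP4 replicate VI (adjusted p 0.22) or control replicate II (0.053).

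Of 7 Paneth cell genes 0 passed in either direction with limma, edgeR or DESeq2, and 1 was lower at an unadjusted p of 0.05 with limma. With replicate number as a block 4 fell, and with equal totals 6 fell. Lyz1, lysozyme, was at 57600, 47800, 47000 and 45000 in controls and 46300, 44600 and 21700 with BMP4 (adjusted p = 0.14, 0.029 with the block). The defensin Defa17, one of a multigene family between which reads can be split, was at 26500, 20200, 23900 and 21100 and 21500, 18500 and 9010 (limma adjusted p = 0.10, 0.049 with the block), and Ang4 had an adjusted p of 0.052 with limma and 0.0067 with the block. Replicate VI was under all controls for each of them and II and III were within or near the control range. Of 12 enteroendocrine genes 5 rose and 2 fell, beside 33.7% higher and 31.4% lower over all genes tested. With replicate number as a block 6 rose and 3 fell. The list median was 0.75 and 0.58 in BMP4 II and III and -0.41 in VI. Neurog3, the factor of endocrine progenitors, was at 123, 110, 193 and 123 and then at 1.19, 2.28 and 0, at or under the level of 3 reads per library, so it was at least 39.0-fold lower. Sct, the hormone secretin, went the other way, from between 25.8 and 35.5 to between 555 and 770, and Gcg, proglucagon, fell from between 389 and 678 to between 41.9 and 124. Chga, a granule protein, was at 1100, 820, 947 and 635 and 1750, 1460 and 705 (adjusted p = 0.16, 0.0078 with the block).

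Of 5 tuft cell genes 2 rose (Avil, 1.62, and Dclk1, 0.77) and Pou2f3, the tuft cell factor, fell (-0.80, adjusted p = 0.0095, and 0.051 without BMP4 replicate II). Over all genes tested 33.7% were higher and 31.4% lower. Dclk1 did not pass with equal totals (adjusted p = 0.071). Of 6 genes of regenerating epithelium 3 rose and 0 fell, among them Il33 (2.38, a 5.78-fold ratio of means that was 3.73-fold without BMP4 replicate VI) and Anxa1 (1.05). Msln, the other, did not pass with equal totals (adjusted p = 0.20) or without BMP4 replicate VI (0.25), among other settings. Clu, a marker of revival stem cells, was at 3360, 2390, 4110 and 3900 and 4770, 3540 and 6950 and passed with replicate number as a block only (adjusted p = 0.14 without it, 0.036 with it). Krt8, an epithelial keratin, rose 3.23-fold. All 7 epithelial identity genes passed upwards by the deposited scale and 5 with equal totals, but this depended on the setting for some. Cdh1, E-cadherin, was at 21900 to 24300 in controls and 26700 to 28400 with BMP4 (log2 fold change 0.26, adjusted p = 0.048). It did not pass with edgeR (adjusted p = 0.19), without the filter (0.10) or without any one of the BMP4 samples (0.078 to 0.13), and with quantile normalization it was lower (-0.40, adjusted p = 0.00064). Epcam and Krt18 did not pass with quantile normalization (adjusted p = 0.44 and 0.78).

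**Figure D4:**
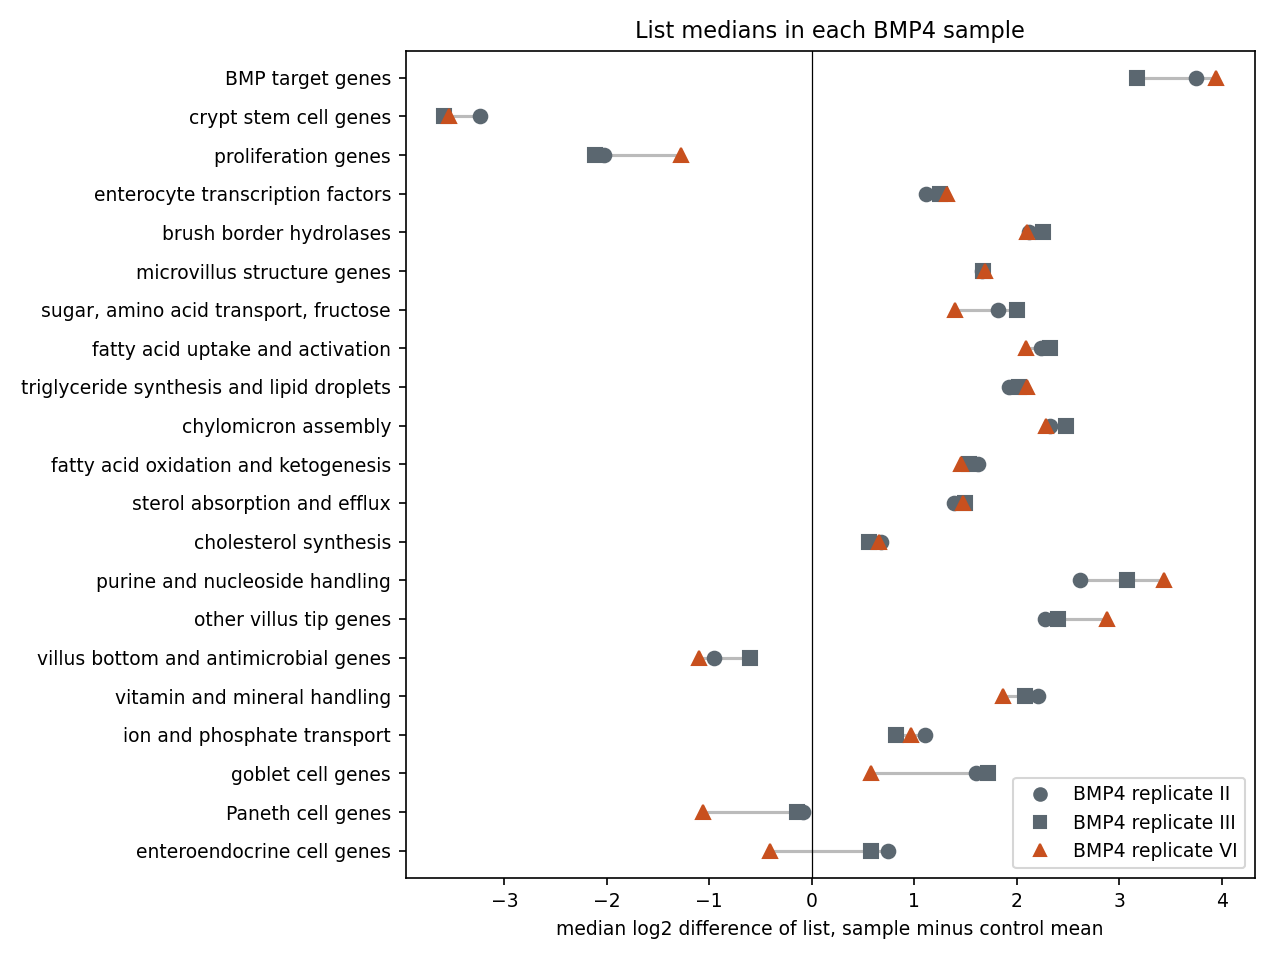
Median log2 difference from the control mean of 21 gene lists in each BMP4 sample; replicate VI is shown as orange triangles. Replicate VI is lower than II and III for goblet, Paneth, enteroendocrine and sugar and amino acid lists and higher for purine, villus tip and proliferation lists.

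The largest changes over all genes held Enpp3, Id3 and Lgr5, described above. Pmp22, a membrane protein first known from myelin, was at 10.7, 5.81, 5.32 and 9.91 and 1320, 1010 and 3630 (log2 fold change 7.62, SE 0.47, adjusted p = 2.4e-10). Tgm4, a transglutaminase, was at or under 1.65 in controls and at 122, 115 and 340 with BMP4, at least 74.8-fold higher against a floor of 3 reads per library. The long noncoding RNA gene Tbx3os2 was at least 123-fold higher; how strand was counted is not given in the sources used here, so an antisense partner cannot be told apart. Among falls, Prelp, a matrix proteoglycan, went from 888, 1130, 1290 and 916 to 2.37, 1.14 and 8.38, and A4gnt, which caps gastric-type mucin sugars, from 111 to 168 to 0 in all 3 samples, at least 42.5-fold lower. Bmp3, itself a ligand of the family, went from 1330, 1000, 1290 and 1020 to 4.74, 6.84 and 1.2 (log2 fold change -7.96). H2ac24, at least 79.0-fold lower, is a histone gene with near-identical copies and is uncertain.

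BMP2 and BMP7, at the same dose and time, did not give the same profile. The BMP4 libraries enter each of these contrasts as well as that with the controls. Of all tested genes, 4923 (33.4%) were higher and 4924 (33.4%) lower with BMP4 than with BMP2, and 4190 (28.4%) higher and 4628 (31.4%) lower than with BMP7. With equal totals the share of the BMP7 calls that were higher moved from 47.5% to 28.7%. All 19 brush border hydrolases were higher with BMP4 than with BMP2 (median log2 difference 4.99) and than with BMP7 (3.57). Sis had a mean of 1600 with BMP2 and 6990 with BMP7 against 82400 with BMP4, log2 differences of 5.69 (SE 0.34, adjusted p = 5.3e-11) and 3.57 (SE 0.36, adjusted p = 1.3e-07). For Lct the differences were 7.71 and 4.47. Sugar and amino acid transport was higher with BMP4 in 17 of 19 genes in both contrasts. In the same 9 absorptive lists BMP2 samples held 1.92% ± 0.393 of counts and BMP7 samples 1.69% ± 0.223, beside 1.98% in the controls. With BMP2 mean shares moved both ways. Hydrolases held 0.111% and sugar and amino acid transport 0.0666%, beside 0.429% and 0.348% in controls. Fatty acid uptake, oxidation and sterol lists were also lower than in controls, and microvillus, triglyceride, chylomicron and purine lists were higher. With BMP7 hydrolases held 0.211% and sugar and amino acid transport 0.147%, and sterol and fatty acid uptake lists were also lower. The other lists were higher. These shares were not tested.

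Some lists held calls in both directions against BMP2, as did all genes tested (33.4% higher and 33.4% lower). Calls both ways are therefore not particular to these lists. Of 17 triglyceride and droplet genes 8 were higher and 6 lower with BMP4 than with BMP2 (median 0.10), and Plin2 was lower (-1.07, adjusted p = 3.7e-06). Of 14 other villus tip genes 5 were higher and 7 lower than with BMP2, with Egfr at -3.36 and Krt20 not passing (-0.56, SE 0.37, adjusted p = 0.19). In the purine list Nt5e and Slc28a2 were lower with BMP4 than with BMP2 (-3.45 and -2.60) and Enpp3 and Gda higher (2.37 and 4.91). The share of counts in that list ran from 0.0648% to 0.208% in BMP2 samples and from 0.188% to 0.260% in BMP4 samples. Regenerating epithelium genes were lower in 4 of 6 against each ligand: Clu had means of 126000 with BMP2, 50170 with BMP7 and 5090 with BMP4. Among BMP targets Id1 did not differ past the threshold from BMP2 (-0.11, SE 0.19, adjusted p = 0.64), while Msx1 was higher with BMP4 (2.63) and Smad7 lower (-1.03, adjusted p = 0.0017). Of the 11 tested BMP targets 6 were higher and 2 lower with BMP4 than with BMP2.

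Proliferation genes separated the ligands. Of 23, 20 were higher and 2 lower with BMP4 than with BMP2, and 0 were higher and 21 lower than with BMP7. Mki67 had a mean of 229 with BMP2, 3460 with BMP4 and 8990 with BMP7. Crypt stem cell genes were lower with BMP4 than with BMP7 in 17 of 18, but against BMP2 6 were higher and 10 lower: Lgr5 and Olfm4 were higher with BMP4 (1.48 and 4.00), and Ephb3 and Cd44 lower (-3.46 and -4.47).

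**Figure D5:**
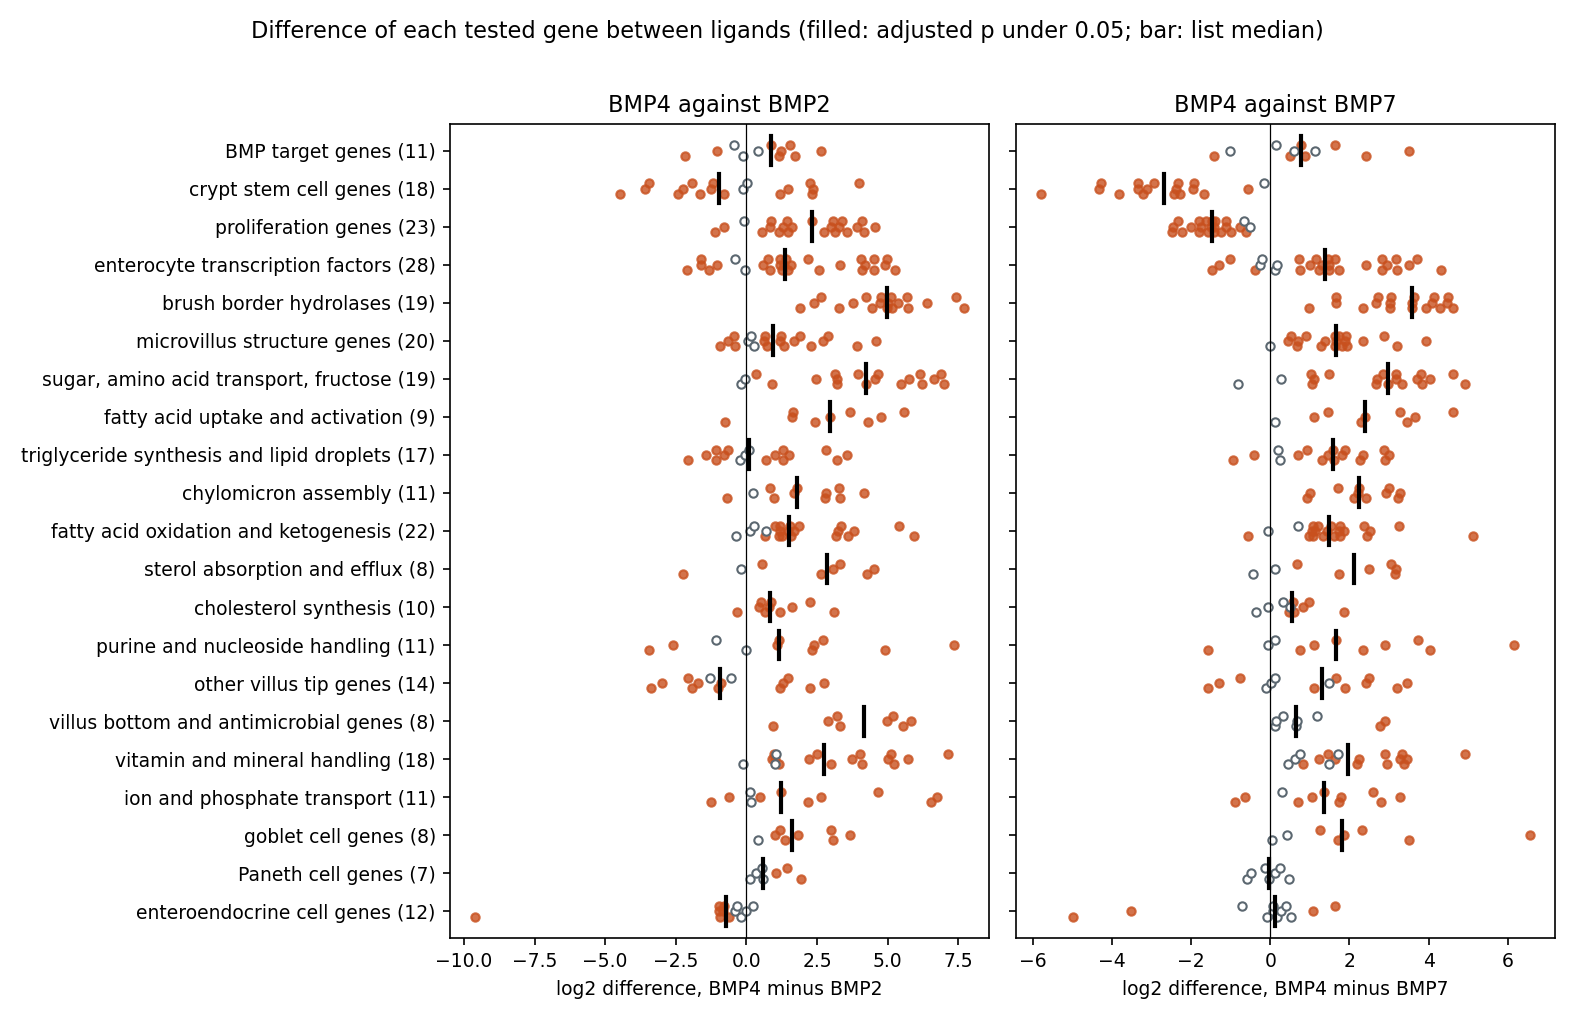
Log2 difference of each tested gene, BMP4 minus BMP2 (left) and BMP4 minus BMP7 (right), in 21 gene lists; filled points passed an adjusted p of 0.05 and bars are list medians. Hydrolases lie to the right in both panels, and the proliferation list lies to the right against BMP2 and to the left against BMP7.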

How the data were processed

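Expression was measured by poly(A) RNA sequencing of organoids (KAPA mRNA kit, NextSeq 500, single-end reads), per the labels' protocols; these mention more than 1 sequencing run, which no label assigns to a sample. Trim Galore, Salmon, DESeq2 and the mouse build GRCm39 are named, per the submitters' processing notes, without versions or roles. The deposited table gives a signal per gene, normalized counts rounded to 3 significant digits. Values at or below 20 reads were whole multiples of 1 step per sample in 100.0% of 180721 cases (tolerance 0.1 reads), so reads could be recovered.

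The main test was limma 3.58.1 (R 4.3.3, trend) on log2(value + 1) for 14746 of 29413 genes, those whose values averaged 10 or more across all 20 samples, fitted over all 6 groups, with Benjamini-Hochberg adjustment at 0.05. Fold changes on this scale understate those of low genes. The design had foreseen raw counts in part; edgeR 4.0.16 and DESeq2 1.42.0 were run on the recovered reads as alternatives, beside other scalings, pseudocounts, filters, a replicate block and leaving out each replicate. Same-numbered BMP4 and control samples deviated together over genes (r = 0.22, 0.19 and 0.22 for II, III and VI, other pairs -0.18 to 0.09). The numbers, which come from the titles, were therefore taken to pair the samples in the blocked fit. The main fit held no block, so its p-values, SE and list counts do not use this pairing. Blocked values are given for named genes whose call they change and for some other list members. The block changed calls of further list members that are not given singly. The script was run on simulated data with few changed genes, no pairing and no shift in totals. That run checks the code and does not bear on the scale or pairing of these data. The comparison, gene lists and genes were chosen with earlier results of these data known. Named were fixed anchor genes, in each list the 2 smallest p and up to 2 called members against the list's direction, and the 5 largest rises and falls; other members given as examples were chosen after their values were seen. Nherf1 was matched to Slc9a3r1 by a RefSeq synonym. Coordinates of genes were not used, since the reference was of another build; promoters were taken from RefSeq GRCm38.p6. Some members of the lists are counted but not reported singly here.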

Additional observations from a re-analysis of the deposited data

Results flagged for a closer look

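Among 143 groups of 4 control values examined (named genes and list shares), 5 held a sample whose gap to the nearest other, as a share of the group's range, exceeded the 95% Dixon limit for 4 samples. Chance alone gives about 1 in 20. Apob was at 37700 normalized counts in control IV and between 17000 and 18400 in the other controls. Sar1b was at 2140 in control VI against 1640 to 1670. Neurog3 was at 193 in control IV against 110 to 123. Tbx3os2 was at 0.887, which is a single read, in control IV and at 0 in the others. The proliferation genes held 0.394% of all counts in control VI and 0.441% to 0.450% in the other controls. For each of these the 3 BMP4 samples lay on one side of all 4 controls, with or without the sample named.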

How the results depend on the processing

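The count of genes past the threshold against controls, 9597, was 8483 to 10263 over other tests, scalings, pseudocounts and filters, 8985 to 9296 leaving out 1 replicate, and 10582 with the replicate block. Against BMP2 the block moved it from 9847 to 10712 and against BMP7 from 8818 to 9976. Of 102 named genes that passed, 94 kept direction and call in all 17 alternatives and 0 reversed. Among the 8 that lost the call somewhere were Slc28a2, Egfr, Reg3b, Spink4, Dclk1, Pou2f3 and Pecam1. Values that changed sign belonged to genes that did not pass and to list medians. The log2 fold change of Lyz2 ran from -0.88 to 0.0022 (without BMP4 replicate VI) when 1 replicate was left out. That of Cd68 ran from -0.19 to 0.27 (without BMP4 VI; 0.19 and 0.05 without control II and III) and was 0.093 with quantile normalization. List medians turned for enteroendocrine (-0.11) and tuft cell genes (-0.070) with equal totals, and the immune median ran from -0.51 to 0.14 (without BMP4 VI). The cause of these changes was not tested. The blocked fit changed no call of a named gene other than those given in the report. The sum of normalized counts depends on the authors' size factors, and genes near the level of 3 reads, such as Msx2, could not be tested at this depth. List counts without BMP4 VI and ratios of means without 1 library were added after seeing the data.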

Other observations

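Further gene lists, assembled after the values were seen, are given as descriptions. Of 30 interferon-stimulated genes 28 rose and 0 fell (median log2 fold change 2.49, 2.10 with equal totals). Ifit1, an antiviral RNA sensor, was at 124, 73, 79.8 and 149 in controls II, III, IV and VI and at 2800, 1860 and 2260 in BMP4 II, III and VI (log2 fold change 4.47, SE 0.39, adjusted p = 1.5e-08). Oasl1, which limits the production of interferon, went from 419, 456, 312 and 478 to 4610, 4620 and 5520, and Irf7, the factor of the interferon loop, rose 7.13-fold. The groups stood apart for each. Ifit2 and Bst2 did not pass. Compared with BMP2 at the same dose and time, 0 of the 30 were higher and 25 lower with BMP4 (median -0.91), and compared with BMP7 18 were higher and 1 lower.

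Of 30 genes of drug and xenobiotic metabolism 28 rose and 0 fell (median 2.09), 23 without BMP4 replicate VI and 23 with equal totals. The cytochrome gene Cyp2c55 was at 1230, 1370, 1540 and 2020 and 16200, 17400 and 15700 (log2 fold change 3.44, SE 0.30, adjusted p = 1.5e-08). Ugt1a1, which conjugates bilirubin, rose 8.24-fold, and Adh4, an alcohol dehydrogenase, 11.5-fold. All but 1 of the 30 were higher with BMP4 than with BMP2 (29, median 4.67) and than with BMP7 (29, median 3.17). Cyp1a1 did not pass in either contrast.

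Among BMP ligands, antagonists and receptors, 16 of 24 could be tested, of which 5 rose and 5 fell (median 0.15), near the shares over all genes tested (33.7% higher and 31.4% lower). With equal totals 2 rose and 7 fell. Bmp4 was among those tested only through its values in other ligand groups, and did not exceed 1.2 in the 7 samples compared. Besides Bmp3, the ligand gene Bmp7 fell, from 591, 592, 422 and 487 to 35.6, 36.5 and 40.7 (log2 fold change -3.75, adjusted p = 1.0e-06), and Bmp2 rose 2.11-fold. Among receptor genes Acvr2a (0.83), Acvr1 (0.54) and Bmpr2 (0.43) rose, Acvr2b fell (-1.41) and Bmpr1a did not pass (adjusted p = 0.26). With equal totals Acvr2a was still higher (adjusted p = 5.8e-05), Acvr1 and Bmpr2 did not pass (0.27 and 0.89), and Bmpr1a was lower (0.027). For Bmpr2 the groups overlapped, and it did not pass with edgeR (adjusted p = 0.079). Smad5, a signal carrier of the pathway, fell (-1.02). Of 28 junction, cadherin and keratin genes 24 rose and 2 fell by the deposited scale (median 0.76), and 15 rose and 5 fell with equal totals. The members that fell were Cldn2, a pore-forming claudin (-1.65), and Cldn8 (-2.66, with a BMP4 to control ratio of means of 0.161 that was 0.0679 without BMP4 replicate III). Ocln, occludin, rose by 0.19 on the deposited scale but was lower with equal totals (-0.21, adjusted p = 0.019) and with quantile normalization (-0.23, adjusted p = 0.0088). Lgals3, a galectin of villus cells, rose 17.5-fold, to 21300, 19700 and 36500. Compared with BMP2, 2 of the 28 were higher and 21 lower with BMP4.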
